A study of Homo sapiens with 8 samples.

Results

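The genes described here are 10 listed under the undifferentiated and invasive states of melanoma, although melanocytic cells are known for 1 of them, ZEB2. The 10 are the surface receptors AXL, NGFR and EGFR, the ligand WNT5A, the repressors ZEB1 and ZEB2, the Hippo pathway effectors YAP1 and TEAD1, the actin-binding protein TPM1 and the matrix protein TNC. They were chosen by name, with earlier results of these data known. Every probe set of the array whose only annotated gene symbol is 1 of these 10 was taken. That gave 50 of the 49495 probe sets and 10 of the 18244 genes. The arrays carried RNA of the human melanoma line SK-MEL-5 in 4 groups of 2. The DMSO group received the solvent, labelled 25 uM, for a time not given in the sources used here. The THZ1 group received 250 nM THZ1, a covalent inhibitor of the transcription kinase CDK7, together with 25 uM DMSO for 6 h. The siCtrl group was transfected with a non-targeting siRNA and the siMITF group with siRNA against MITF, the master transcription factor of melanocytes; the time after transfection is not given in the sources used here. All groups are 1 cell line grown in the same serum-containing medium, so nothing here speaks for melanoma cells of other states. Nothing in the labels ties the 2 arrays of a group to separate cultures, and p-values then measure only the spread between these arrays, which may be technical.

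Melanoma cells can take up a melanocytic state, driven by MITF and SOX10 and marked by pigment genes, or dedifferentiated states in which pigment genes are low and receptor, matrix and cytoskeletal genes are high. AXL, NGFR and EGFR are receptors known to be high in dedifferentiated melanoma, and WNT5A is a noncanonical Wnt ligand tied to motility. ZEB1 and ZEB2 are zinc finger repressors of the epithelial-mesenchymal programme: melanocytic cells are known for ZEB2, and invasive cells for ZEB1. YAP1 is the coactivator that the Hippo kinases hold out of the nucleus, TEAD1 is the DNA-binding factor it works through, TPM1 is a tropomyosin that coats actin filaments, and TNC is tenascin C, a secreted glycoprotein of the matrix.

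Of these 10 genes, 5 gave signals above background on all 8 arrays (ZEB2, TPM1, TNC, TEAD1 and YAP1), and 5 on none (AXL, NGFR, EGFR, WNT5A and ZEB1). Background was set on each array as the 95th percentile of 506 probe sets of olfactory receptor, bitter taste receptor and hair keratin-associated genes, families whose expression is mostly restricted to other tissues. After THZ1, ZEB2, for which melanocytic cells are known, fell, and the other 4 genes above background did not pass the test. After MITF siRNA, TPM1 and YAP1 fell on both scales described below, per cell and after centring on the median gene. TEAD1 and TNC fell per cell and were not called after centring. Of all tested genes, 63.4% were called lower per cell after MITF siRNA and 24.7% after centring, against 10.0% and 21.1% after THZ1. By the brightest probe set of each, none of the 5 genes above background rose in either comparison. After centring, 17.7% of all tested genes were called higher after THZ1 and 19.5% after MITF siRNA.

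The promoters of 3 genes on which these results turn are shown with the letters of known factors marked, because ZEB2 is the gene that fell after THZ1 and YAP1 and TPM1 are those that fell on both scales after MITF siRNA. The sequences are RefSeq's on GRCh38.p14 and cover the 250 bases before an annotated start of transcription, 5′ to 3′ on the gene's strand. For YAP1 and ZEB2 that start is the outer end of the gene in RefSeq, whereas for TPM1 it lies inside the gene. Capitals mark CACGTG and CATGTG (E-boxes that MITF is known to read), CACCTG (the E-box of ZEB factors), GGAATG (the letters of TEAD factors) and TGANTCA (AP-1), each searched on both strands; none of these motifs overlaps another in the stretches shown.
YAP1: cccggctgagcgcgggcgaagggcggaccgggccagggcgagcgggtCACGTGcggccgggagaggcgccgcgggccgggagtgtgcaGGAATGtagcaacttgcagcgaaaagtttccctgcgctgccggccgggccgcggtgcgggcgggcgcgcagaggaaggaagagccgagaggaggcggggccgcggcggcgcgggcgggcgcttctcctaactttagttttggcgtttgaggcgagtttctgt
TPM1: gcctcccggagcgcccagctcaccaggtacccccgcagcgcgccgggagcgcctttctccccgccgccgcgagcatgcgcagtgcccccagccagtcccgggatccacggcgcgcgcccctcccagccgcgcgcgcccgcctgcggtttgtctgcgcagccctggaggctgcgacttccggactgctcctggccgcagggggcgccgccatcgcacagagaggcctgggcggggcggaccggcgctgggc
ZEB2: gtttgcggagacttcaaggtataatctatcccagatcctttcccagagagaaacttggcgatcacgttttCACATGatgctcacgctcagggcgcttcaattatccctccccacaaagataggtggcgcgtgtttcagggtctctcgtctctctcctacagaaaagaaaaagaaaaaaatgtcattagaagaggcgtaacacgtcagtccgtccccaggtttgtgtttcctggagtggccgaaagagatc
The YAP1 stretch is chr11:102110197-102110446 on the plus strand, with CACGTG 203 bases and GGAATG 162 bases before the start. The TPM1 stretch, chr15:63048239-63048488 on the plus strand, held none of the 5 motifs. The ZEB2 stretch, chr2:144520120-144520369 on the minus strand, held CATGTG, read as CACATG on the strand shown, 180 bases before the start. Among all 35116 RefSeq promoters of 300 bases (250 before and 50 after the start), CACGTG occurred in 7.26%, CATGTG in 11.1%, CACCTG in 20.6%, GGAATG in 14.0% and TGANTCA in 7.71%. A match of letters is a description and shows no binding. In all, 8 of the 10 genes had 17 promoters in the table; NGFR and TEAD1 were not matched.

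The values are MAS5 signals, a linear brightness per probe set, which the study describes as normalized to cell number. Changes were tested with limma on log2(signal + 16) over the 11946 genes that passed a filter on low signal, with Benjamini-Hochberg adjustment and a call at an adjusted p under 0.05. Each adjusted p below is from that fit, or from an alternative fit where one is named. Changes are given on 2 scales, both as log2 changes with a standard error: per cell, as deposited, and after centring, that is with each array shifted so that its median deviation over the tested genes is 0. The scales differ because most tested genes were dimmer per cell in the treated group. The median change was -0.16 after THZ1 and -0.63 after MITF siRNA. Signals read below are per cell, so groups that do not overlap include this shift. The share of all genes without overlap is not given here. Per cell, the arrays of a group differed mostly by a shift shared by all genes, and limma gave every gene the same standard error of 0.25 with no allowance for its uncertainty, so the smallest per-cell p-values are too small. When each gene kept its own variance, no gene passed per cell (limma, lowest adjusted p 0.268 after THZ1, with 1444 genes at an unadjusted p under 0.05, and 0.0893 after MITF siRNA, with 5706). In bulk RNA, fewer cells of a type and less RNA per cell cannot be told apart. The number of arrays, 2 in each group, limits the precision throughout.

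Replicate arrays correlated at 0.996 over the log2 signals. MITF itself fell after its siRNA, by 1.35 per cell (adjusted p = 1.62e-06) and by 0.72 after centring (adjusted p = 3.25e-04). Of 11 melanocytic genes with a probe set, 11 were above background on all 8 arrays. Of the markers of other cells, 1 of 9 fibroblast genes (LUM), 1 of 7 keratinocyte genes (KRT10), 1 of 9 leukocyte genes (CD68) and 0 of 6 endothelial genes were above background on all 8 arrays, and COL1A1, COL1A2, COL3A1, FAP and PDGFRA on none. The spike-in RNAs did not have the same level in the 2 sets of arrays: the median signal of the 40 detected ERCC probe sets was 997 to 1046 on the DMSO and THZ1 arrays and 487 to 509 on the siRNA arrays. Levels are therefore compared within a set unless stated.

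None of the 3 receptors and the ligand was above background on any array. AXL, a receptor kinase for GAS6, had 2 probe sets, the brighter of which read 34.0 and 41.7 with DMSO, 28.1 and 47.4 with THZ1, 22.8 and 31.4 with siCtrl and 26.7 and 15.8 with siMITF. Its highest reading was 0.543 of the background of its array. NGFR, the low-affinity neurotrophin receptor, read 53.8 and 75.7 with DMSO, 46.7 and 75.7 with THZ1, 47.5 and 72.0 with siCtrl and 44.1 and 29.9 with siMITF, at most 0.896 of background. The treated arrays of both genes overlapped their controls in the THZ1 comparison, and in the siMITF comparison only AXL overlapped.

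EGFR, the receptor for epidermal growth factor, had 8 probe sets, and the brightest read 38.4 and 45.8 with DMSO, 40.6 and 26.4 with THZ1, 32.9 and 36.2 with siCtrl and 26.6 and 24.2 with siMITF. No EGFR probe set exceeded 0.700 of background. WNT5A, with 5 probe sets, read 35.3 and 45.4 with DMSO, 23.4 and 34.5 with THZ1, 48.0 and 54.7 with siCtrl and 47.6 and 31.3 with siMITF. WNT5A came nearest to background of the genes below it, at 0.968 on 1 siMITF array. No fold change is given for these genes, since both groups of each comparison had only an upper bound.

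The placing of the background decides the call for some of them. With the 90th percentile in place of the 95th, NGFR was above background on 6 arrays, WNT5A on 4 and ZEB1 on 2, and only AXL and EGFR stayed below it on all 8. With a background from other tissue-restricted genes, WNT5A passed on 1 array.

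**Figure D1:**
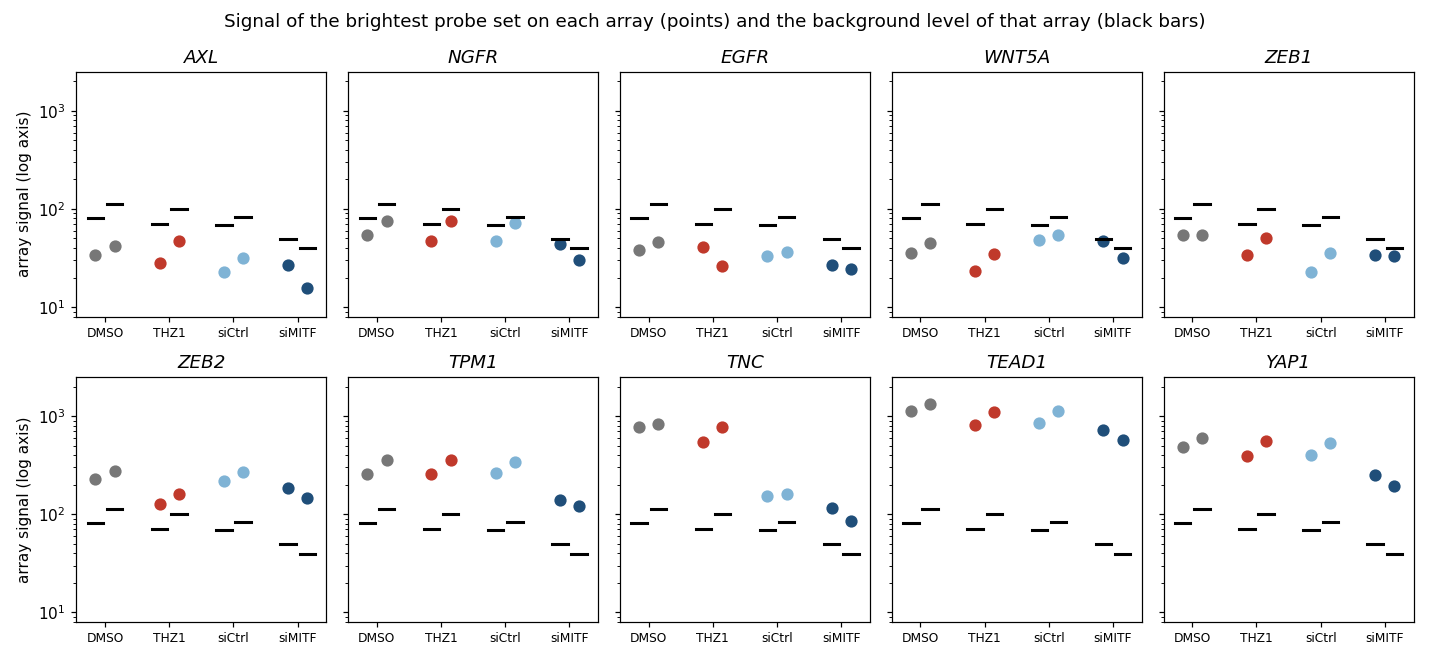
MAS5 signal (arbitrary units, log axis) of the brightest probe set of each of the 10 genes on each array, coloured by group, with the background of that array (95th percentile of 506 probe sets) as a black bar. ZEB2, TPM1, TNC, TEAD1 and YAP1 lie above background on all 8 arrays, and AXL, NGFR, EGFR, WNT5A and ZEB1 on none.

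Of 23 ligands and partners of these receptors, 18 had a probe set, 8 were above background on all 8 arrays and 12 were tested. After THZ1, none passed per cell, and 5 were higher and 2 lower after centring (all genes: 17.7% and 21.1%), with a list median of 0.12 where the median of all genes was 0.037. HBEGF, a ligand of EGFR, was among the higher (0.55 after centring, adjusted p = 0.00646). After MITF siRNA, 5 fell and 1 rose per cell, and 2 fell and 6 rose after centring, where 63.4% of all tested genes fell per cell and 19.5% rose after centring. The 6 include BDNF and NTRK3, above background on no array, and the 506 background probe sets had a median of 0.43 on that scale. The gene that rose per cell was ERBB3, the EGFR family member that binds neuregulins: it read 382 and 486 with siCtrl and 821 and 613 with siMITF, 2 groups that did not overlap. Its change was 0.70 per cell (adjusted p = 0.0103) and 1.33 after centring (adjusted p = 8.00e-06). ERBB2, its signalling partner, fell by 1.04 per cell and by 0.41 after centring.

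ZEB1 was not above background on any array in any of its 7 probe sets. The brightest read 54.0 and 54.5 with DMSO, 33.7 and 50.4 with THZ1, 23.0 and 35.9 with siCtrl and 33.6 and 33.2 with siMITF, at most 0.839 of background. ZEB2 was above background on all 8 arrays and read 228.7 and 275.5 with DMSO against 128.1 and 161.0 with THZ1. Both THZ1 arrays were below both DMSO arrays. On none of these arrays did ZEB2 exceed the 99th percentile of the background probe sets. ZEB2 fell 1.67-fold per cell (log2 change -0.74, SE 0.25, adjusted p = 0.0294) and 1.46-fold after centring (-0.54, SE 0.071, adjusted p = 3.12e-04).

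ZEB2 was 1 of 5 genes above background called lower after THZ1 on either scale, where 10.0% of all tested genes were called lower per cell and 21.1% after centring. Leaving out DMSO replicate 2 took the per-cell share to 2.06%, leaving out THZ1 replicate 1 to 2.96%, and leaving out THZ1 replicate 2 to 17.6%. Called higher were 0 of 5, against 0.0753% of genes per cell and 17.7% after centring. The per-cell call was lost without DMSO replicate 1 (adjusted p = 0.0505), DMSO replicate 2 (0.501) or THZ1 replicate 1 (0.350), while the centred call held under each of 20 alternatives, with changes from -0.61 to -0.39. A second ZEB2 probe set, above background on 6 arrays but on neither THZ1 array, gave -0.39 per cell and -0.19 after centring, neither of which passed.

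With siRNA, ZEB2 read 220.1 and 268.3 with siCtrl and 184.2 and 147.3 with siMITF. The groups did not overlap, but the change of -0.52 per cell missed the threshold (adjusted p = 0.0532). That change passed as a fall in 9 of 22 alternatives and turned sign in 1. After centring it was 0.11 with a 95% interval of -0.05 to 0.27 (adjusted p = 0.222). The second ZEB2 probe set, above background on all siRNA arrays, was tested with every probe set on its own. It gave -0.34 per cell (limma adjusted p = 0.186) and 0.29 after centring (adjusted p = 0.0303). Background probe sets had a median of 0.43 on the centred scale.

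Of 15 other factors and effectors of the epithelial-mesenchymal programme that were tested, 4 fell and 0 rose per cell after THZ1, and 4 fell and 3 rose after centring. Over all tested genes 10.0% fell and 0.0753% rose per cell, and 21.1% fell and 17.7% rose after centring. SNAI2, a zinc finger repressor known in neural crest cells, read 1425.5 and 1701 with DMSO and 410.2 and 615 with THZ1, a change of -1.60 per cell and -1.40 after centring. TWIST1, a helix-loop-helix factor, fell by 1.31 per cell and by 1.11 after centring, and SMAD3, which carries the TGF-beta signal, by 0.91 and 0.71. After MITF siRNA, 5 fell and 0 rose per cell and 1 fell and 4 rose after centring (all genes: 63.4% lower per cell, 24.7% lower and 19.5% higher after centring), and the gene that fell on both scales was TGFBR1, a TGF-beta receptor (-1.13 and -0.49).

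YAP1 and TEAD1 were bright and were not called after THZ1. YAP1 read 479.6 and 598 with DMSO and 390.2 and 559 with THZ1, so the groups overlapped. Its change was -0.19 per cell and 0.01 after centring, the latter with a 95% interval of -0.16 to 0.18 (adjusted p = 0.939). TEAD1 read 1115 and 1323 with DMSO and 807 and 1106 with THZ1, with both THZ1 arrays below both DMSO arrays. The TEAD1 change was -0.36 per cell (adjusted p = 0.515) and -0.16 after centring, with a 95% interval of -0.33 to 0.02 (adjusted p = 0.140).

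After MITF siRNA, YAP1 fell. It read 406 and 527 with siCtrl and 253 and 195 with siMITF, and both siMITF arrays were below both siCtrl arrays. The fall was 2.01-fold per cell (-1.01, SE 0.25, adjusted p = 3.12e-04) and 1.29-fold after centring (-0.37, SE 0.076, adjusted p = 0.00336). The centred change stayed called under each of 20 alternatives, from -0.59 to -0.18; the per-cell call was lost without siCtrl replicate 2 (adjusted p = 0.0540) and with each gene's own variance (0.0893).

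With every probe set tested on its own, 7 of the 8 YAP1 probe sets were above background on all 8 arrays, and 7 of these 7 were called lower per cell, at -1.07 to -0.54, where 40.6% of all probe sets were. After centring, 2 of the 7 were called lower, where 12.5% of probe sets were, or 22.7% when the arrays were centred over all probe sets instead of the tested genes; the 7 changes ran from -0.44 to 0.09, with a median of -0.14.

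TEAD1 read 845 and 1129 with siCtrl and 727 and 565 with siMITF, groups that did not overlap per cell but did after centring. It fell 1.51-fold per cell (-0.60, adjusted p = 0.0277), about as much as the median gene; its change after centring was 0.04, with a 95% interval of -0.14 to 0.21 (adjusted p = 0.730). The per-cell call was lost without siCtrl replicate 2 (adjusted p = 0.313) or siMITF replicate 2 (0.287). The other 2 TEAD1 probe sets were above background on no array.

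In the Hippo list of kinases, adaptors and partners of YAP1, 14 genes were tested. After THZ1, 1 fell and 0 rose per cell, and 2 fell and 3 rose after centring (all genes: 10.0% lower per cell, 21.1% lower and 17.7% higher after centring). The 2 were SAV1, the scaffold of the Hippo kinases, which was not above background on either THZ1 array, and TEAD4, a relative of TEAD1 (-0.37 after centring). After MITF siRNA, 8 fell and 0 rose per cell, and 3 fell and 2 rose after centring, beside 63.4% of all tested genes lower per cell and 24.7% lower and 19.5% higher after centring. MOB1A and MOB1B, coactivators of the LATS kinases that restrain YAP1, were both among the lower (-0.42 and -0.45 after centring), as was TEAD4 (-0.29).

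Among 16 tested targets of YAP1 and TEAD factors, 1 fell and 0 rose per cell after THZ1, and 4 fell and 2 rose after centring, where 21.1% and 17.7% of all genes fell and rose. MYOF, a membrane repair protein, fell by 0.73 per cell and 0.53 after centring, and CCN1, a matricellular protein, rose by 0.62 after centring. After MITF siRNA, 7 fell and 0 rose per cell, and 2 fell and 7 rose after centring (all genes: 63.4% lower per cell, 24.7% lower and 19.5% higher after centring). MYOF rose by 0.74 after centring and CCN1 by 0.57. The list median was 0.23 after centring, where that of all genes was 0.0014. On that scale the 506 background probe sets had a median of 0.43, and 9 of the 21 listed targets were above background on no array; the part of this in the counts was not tested.

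**Figure D2:**
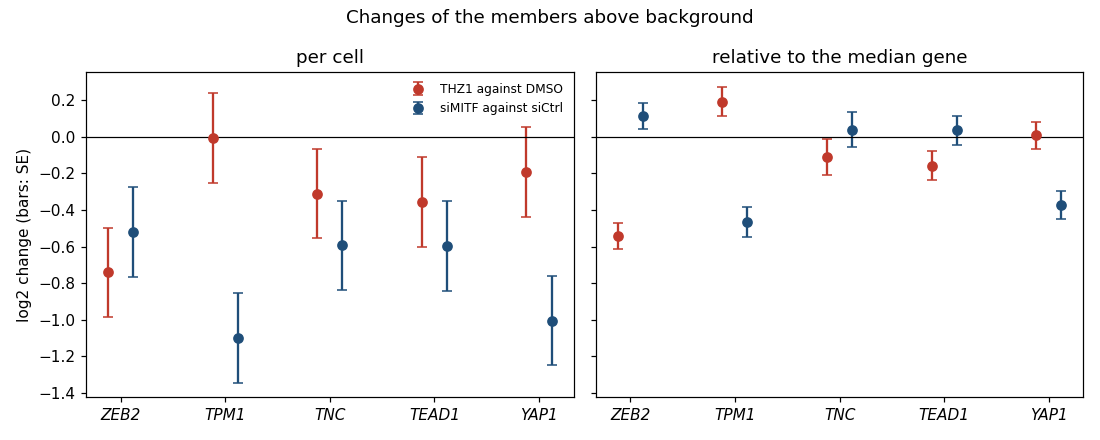
Log2 change (vertical axis) of the 5 genes above background after THZ1 (red) and after MITF siRNA (blue), per cell on the left and after centring on the median gene on the right, with bars of 1 standard error. ZEB2 is lowest after THZ1 (-0.54 after centring), and TPM1 and YAP1 after MITF siRNA (-0.47 and -0.37).

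TPM1 had the largest fall of the 5 genes above background after MITF siRNA, on both scales. It read 260.6 and 339.5 with siCtrl and 141.2 and 120.2 with siMITF, with both siMITF arrays below both siCtrl arrays. The fall was 2.14-fold per cell (-1.10, SE 0.25, adjusted p = 8.71e-05) and 1.38-fold after centring (-0.47, SE 0.081, adjusted p = 0.00147). With every probe set tested on its own, 4 of the 9 TPM1 probe sets were above background on all 8 arrays; 4 of these 4 were called lower per cell and 3 of 4 after centring, where they ran from -0.47 to 0.05. Averaging all 9 probe sets, of which 3 were above background on no array, gave 0.02 after centring, a change of sign; the per-cell call was lost only with each gene's own variance (adjusted p = 0.0893) among 22 alternatives.

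With THZ1, TPM1 read 255.9 and 360.8 against 258.9 and 359.6 with DMSO, so the groups overlapped. Its change was -0.01 per cell, with a 95% interval of -0.49 to 0.48, and 0.19 after centring (adjusted p = 0.0839).

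**Figure D3:**
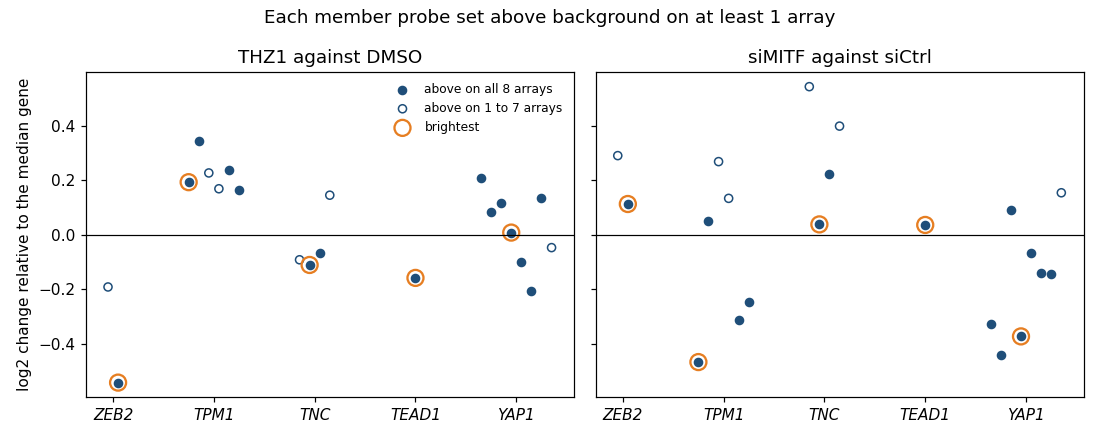
Log2 change after centring on the median gene (vertical axis) of each probe set above background on at least 1 array, after THZ1 and after MITF siRNA, with filled points for those above it on all 8. Open points are probe sets above background on 1 to 7 arrays and orange rings mark the brightest. The filled TPM1 points run from -0.47 to 0.05 after MITF siRNA and the filled YAP1 points from -0.44 to 0.09.

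TNC read 784 and 837 with DMSO and 544 and 777 with THZ1, with both THZ1 arrays below both DMSO arrays. After centring these groups overlapped. The change was -0.31 per cell (adjusted p = 0.632) and -0.11 after centring, with a 95% interval of -0.33 to 0.10 (adjusted p = 0.389). With siRNA, TNC read 154 and 163 with siCtrl and 116 and 85.2 with siMITF. TNC did not exceed the 99th percentile of the background probe sets on any siRNA array. It fell 1.51-fold per cell (-0.59, adjusted p = 0.0282). Its change after centring was 0.04, with a 95% interval of -0.18 to 0.25 (adjusted p = 0.767). With every probe set tested on its own, the other TNC probe sets gave 0.54, 0.40 and 0.23 after centring (limma adjusted p = 0.00756, 0.0181 and 0.0853). They were above background on 7, 4 and 8 arrays, the 4 being the DMSO and THZ1 arrays. Background probe sets had a median of 0.43 on that scale. The per-cell call was lost without siCtrl replicate 1 (adjusted p = 0.0691), siCtrl replicate 2 (0.169) or siMITF replicate 2 (0.306).

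After MITF siRNA, then, 4 of the 5 genes above background were called lower per cell, where 63.4% of all tested genes were (14.6% without siCtrl replicate 2 and 15.3% without siMITF replicate 2), and 2 of 5 after centring, where 24.7% were (15.9% without either siCtrl replicate 2 or siMITF replicate 2). Called higher were 0 of 5 on both scales, against 0.326% of genes per cell and 19.5% after centring. The medians of the 5 were -0.60 per cell and 0.04 after centring, beside -0.63 and 0.0014 for all genes.

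The largest difference in TNC lay between the control groups of the 2 sets. Comparing siCtrl with DMSO was added after these values were seen. TNC was 4.73-fold lower per cell with siCtrl (-2.24, adjusted p = 3.52e-17), where 6.12% of genes were called lower and 0.134% higher, and 3.84-fold lower after centring (-1.94, SE 0.096, adjusted p = 9.54e-07), where 14.5% of genes were called lower. The per-cell share called lower was 1.12% without DMSO replicate 2, 1.05% without siCtrl replicate 1, 3.83% without siCtrl replicate 2 and 11.0% without either THZ1 array. The 4 TNC probe sets gave -1.95, -1.94, -1.37 and -0.91 after centring. The centred call held under each of 19 alternatives (-2.05 to -1.57), and the per-cell call was lost with each gene's own variance (adjusted p = 0.254). With arrays scaled to equal signal of the detected ERCC probe sets, an alternative added after seeing the data, the per-cell TNC change was -1.21 and still passed, and over all genes 65 were lower and 9813 higher. ZEB2 and TPM1 were higher with siCtrl after centring (0.26, adjusted p = 0.0257, and 0.27, adjusted p = 0.0379), where 11.0% of genes were called higher, and the changes of TEAD1 (-0.01) and YAP1 (0.09) did not pass. The ZEB2 call was lost without DMSO replicate 1 (adjusted p = 0.0707), DMSO replicate 2 (0.129), siCtrl replicate 1 (0.0826) or siCtrl replicate 2 (0.0958). The TPM1 call was lost without DMSO replicate 1 (0.218), siCtrl replicate 1 (0.0592), siCtrl replicate 2 (0.173), siMITF replicate 1 (0.0569) or siMITF replicate 2 (0.0582).

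DCN, a fibroblast marker that passes background on 7 arrays, was also lower in the siRNA arrays: it read 173 and 208 with DMSO, 202 and 285 with THZ1, 66.8 and 87.4 with siCtrl and 61.3 and 45.2 with siMITF. The summed signal of 9 fibroblast markers, most of it LUM, was 2427 to 2916 with DMSO, 2722 to 3508 with THZ1, 1590 to 1928 with siCtrl and 784 to 1023 with siMITF. The collagens COL1A1, COL1A2 and COL3A1 were above background on no array. With siCtrl against DMSO after centring, 2 of the 3 tested fibroblast markers were called lower and 1 higher. On that scale 7 of the 11 tested melanocytic genes were also called lower and 0 higher (all genes: 14.5% lower, 11.0% higher). Of the 15 tested genes of the epithelial-mesenchymal list, 5 were called lower and 1 higher. CDH1 of that list read 560 and 664 with DMSO and 63.0 and 59.7 with siCtrl, the latter below background. Solvent against transfection and the level of the spike-in RNAs differ together between the 2 control groups and cannot be told apart, and the part of the fibroblast markers in the TNC difference was not tested.

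The effects of THZ1 and MITF siRNA on these genes were compared directly, as the THZ1 change minus the siMITF change. The ZEB2 change was lower after THZ1 than after MITF siRNA, by -0.66 after centring (SE 0.10, adjusted p = 7.73e-04), a difference that per cell was -0.22 and did not pass (adjusted p = 0.657). The TPM1 change was lower after MITF siRNA on both scales, with differences of 1.09 per cell (SE 0.35, adjusted p = 0.0263) and 0.66 after centring (adjusted p = 0.00148). So was the YAP1 change after centring (0.38, adjusted p = 0.0166), and not per cell (0.81, adjusted p = 0.0965). Tested singly after centring, 1 of the 7 YAP1 probe sets above background on every array was called higher and 0 lower. Their differences ran from -0.07 to 0.54, with a median of 0.28, and the brightest missed the threshold (limma adjusted p = 0.0773). Averaging the probe sets of each gene gave 0.19 for YAP1 (limma adjusted p = 0.138) and 0.16 for TPM1 (0.177) after centring, neither called. Of the 5 genes, 1 of 5 was called lower and 2 of 5 higher after centring, where 20.2% and 21.4% of all genes were, and 0 lower and 1 higher per cell, where 0.946% and 9.84% were.

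The per-cell difference of TPM1 was lost without DMSO replicate 1 (adjusted p = 0.286), THZ1 replicate 2 (0.171), siCtrl replicate 2 (0.296) or siMITF replicate 2 (0.227). The centred difference of YAP1 was lost without THZ1 replicate 2 (0.0588), siCtrl replicate 2 (0.0613) or siMITF replicate 2 (0.0655). For TNC and TEAD1 the difference did not pass on either scale (after centring -0.15, 95% interval -0.45 to 0.15, and -0.19, 95% interval -0.44 to 0.05).

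A wider list of 26 genes of the invasive and undifferentiated states had 22 tested members. After THZ1, 5 fell and 0 rose per cell, and 8 fell and 3 rose after centring (all genes: 10.0% lower per cell, 21.1% lower and 17.7% higher after centring). NFATC2, a transcription factor, read 164 and 230 with DMSO and 71.1 and 80.8 with THZ1, a fall of 1.20 per cell; 1 of the 2 THZ1 arrays was above background. IL6, an inflammatory cytokine, fell by 0.98 per cell. After MITF siRNA, 6 fell and 2 rose per cell, and 1 fell and 12 rose after centring, where 63.4% and 0.326% of all tested genes fell and rose per cell and 24.7% and 19.5% after centring. The 2 that rose per cell were NFATC2, which read 118 and 161 with siCtrl and 240 and 189 with siMITF (0.57, adjusted p = 0.0341), and SERPINE2, a secreted protease inhibitor, which read 2577 and 3199 and then 4484 and 3872 (0.53, adjusted p = 0.0467). After centring, DKK1, a Wnt antagonist above background on the 4 siRNA arrays, rose by 1.16, and the list median was 0.34. As above, background probe sets had a median of 0.43 on that scale, and 7 of the 24 genes with a probe set were above background on no array.

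**Figure D4:**
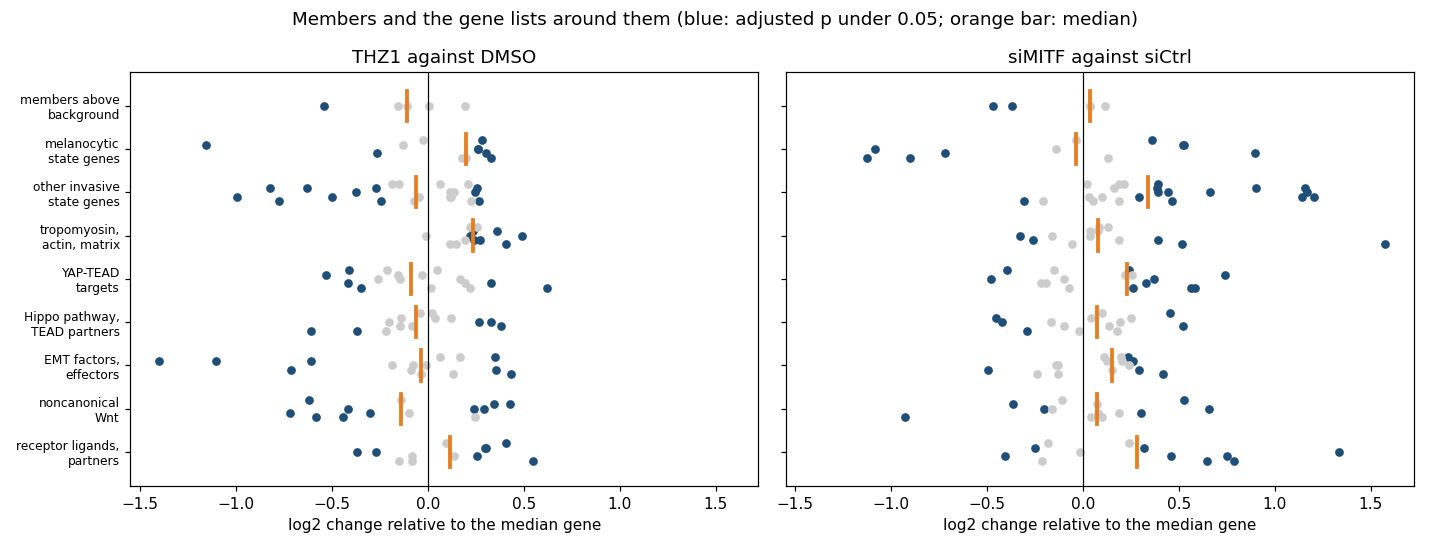
Log2 change after centring on the median gene (horizontal axis) of each tested gene, by list, after THZ1 (left) and after MITF siRNA (right); blue points passed at an adjusted p under 0.05, grey points did not, and the orange bar is the list median. After MITF siRNA, 12 of the 22 other invasive state genes were called higher, where 19.5% of all tested genes were. The 506 background probe sets had a median of 0.43 on this scale, and the 5 members above background a median of 0.04.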

How the data were processed

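The deposited intensities of 8 arrays are MAS5 signals on a linear scale, per the submitters' processing notes, and are described as normalized to cell number with spike-in RNA in proportion to cell number, per the labels' protocols; how the scaling was computed is not given in the sources used here. Of 49495 probe sets, 45284 have 1 gene symbol, and 4211 have several or none and were not used for genes; 45214 matched RefSeq. Each of 18244 genes was taken as its brightest probe set by mean log2(signal + 16), and the 11946 at or above the 40th percentile of all probe sets (signal 39.2) were tested with limma 3.58.1 in R 4.3.3 (1 mean per group over 8 arrays, lmFit and eBayes, Benjamini-Hochberg). The prior degrees of freedom came out infinite for per-cell values and 5.97 after centring, beside 4 residual. Of the 10 genes, 6 passed the filter, among them NGFR. The members and all gene lists were chosen with earlier results of these data known. Named genes are all members and up to 4 of each context list with the lowest adjusted p. Replicate numbers were not shown to pair arrays (correlation of deviations 0.11 for DMSO with THZ1 and -0.18 for siCtrl with siMITF). The fit was tested on simulated data. Motifs were searched with Python 3.11.15. Alternatives were other pseudocounts (1, 64), filters, probe set rules, variance models, normalizations, a replicate block, backgrounds (90th and 99th percentiles) and each array left out.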

Additional observations from a re-analysis of the deposited data

Results flagged for a closer look

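The change after THZ1 differed from the change after MITF siRNA for 3 of the 5 genes above background, by the test of the difference itself (limma, Benjamini-Hochberg), where 20.2% of all tested genes were called lower and 21.4% higher after centring. For ZEB2 the THZ1 change minus the siMITF change was -0.66 after centring. For TPM1 it was 1.09 per cell and 0.66 after centring. For YAP1 it was 0.38 after centring. These values are of the brightest probe set of each gene. Tested singly after centring, 1 of the 7 YAP1 probe sets above background on every array was called higher and 0 lower. The centred YAP1 and TPM1 calls were lost with the mean of the probe sets of a gene. Per cell, ZEB2 (adjusted p = 0.657) and YAP1 (0.0965) did not pass. Leaving out single arrays lost the per-cell TPM1 call (without DMSO replicate 1, THZ1 replicate 2, siCtrl replicate 2 or siMITF replicate 2) and the centred YAP1 call (without THZ1 replicate 2, siCtrl replicate 2 or siMITF replicate 2).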

How the results depend on the processing

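After centring, ZEB2 after THZ1 and YAP1 after MITF siRNA stayed called in all 20 alternatives and TPM1 after MITF siRNA in 19. Counts below are of the 5 genes above background. Shares of all tested genes under the same setting are in brackets. Per cell, the 1 gene lower after THZ1 became 0 with the mean of probe sets (7.81%), each gene's own variance (0.00%), a variance trend (6.88%), the 2 groups alone (7.38%) and equal median ERCC signal (5.80%). It became 2 with quantile normalization (18.4%), which also gave 1 higher (20.7%). The 4 lower after MITF siRNA became 0 with own variance (0.00%). They became 2 with the trend (58.8%), equal ERCC (47.8%) and quantile normalization (19.2%), which also gave 2 higher (18.7%). The 1 higher in the difference became 0 with the mean (14.8%), own variance (0.00%), the trend (1.47%) and equal ERCC (0.586%). It became 2 with quantile normalization (20.4%), which also gave 2 lower (19.1%). After centring, THZ1 gave 2 lower with quantile normalization (18.4%). It gave 1 higher with quantile normalization (20.7%), the filter at the 60th percentile (27.6%) and the mean (19.2%). MITF siRNA gave 1 lower (27.5%) and 2 higher (23.1%) with the mean, 2 higher with quantile normalization (18.7%) and 1 higher with that filter (24.6%). The difference gave 2 lower with that filter (26.9%), the mean (21.6%) and quantile normalization (19.1%), and 0 higher with the mean (24.0%).

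With each array left out in turn, the per-cell ZEB2 change after THZ1 ran from -0.89 to -0.59. Per cell after MITF siRNA, TPM1 ran from -1.28 to -0.92 and YAP1 from -1.19 to -0.82. On the same scale TEAD1 ran from -0.80 to -0.39, TNC from -0.79 to -0.40 and ZEB2 from -0.67 to -0.37. The TPM1 difference ran from 0.86 to 1.33 per cell and the YAP1 difference from 0.33 to 0.44 after centring. Calls lost in this way are named above. Genes above background on all 8 arrays numbered 3 at the 99th percentile, and those on none 2 at the 90th. At the 99th percentile ZEB2 passed on the 4 siRNA arrays only, and TNC on the 4 DMSO and THZ1 arrays only.

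Directions reversed per cell under quantile normalization, which removes a shift shared by all genes: TPM1 after THZ1 became 0.30, ZEB2, TNC and TEAD1 after MITF siRNA 0.24, 0.042 and 0.28, the TEAD1 difference -0.49, and ZEB2 and TPM1 in siCtrl against DMSO 0.28 and 0.29. In siCtrl against DMSO, equal signal of detected ERCC probe sets, chosen after seeing the data, turned ZEB2 to 0.98, TPM1 to 0.99, TEAD1 to 0.72 and YAP1 to 0.82, while TNC stayed lower at -1.21; over all genes it gave 65 lower and 9813 higher, against 731 and 16. After centring, TPM1 after MITF siRNA became 0.020 with the mean of probe sets, dim ones included. For the other alternatives the cause was not tested.

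With the replicate block, 5 genes were lower after MITF siRNA per cell, as ZEB2 passed (-0.52, adjusted p = 0.0487; it passed as a fall in 9 of 22 alternatives in all), and no other call of these 5 genes changed; over all genes the block gave 1263 lower and 10 higher after THZ1 and 7745 lower and 42 higher after MITF siRNA, per cell. With the siMITF numbers crossed in the block, chosen after seeing the data, 3 genes were lower after THZ1 and 2 higher in the difference, per cell. Over all genes, 4359 (36.5%) were lower and 207 (1.73%) higher after THZ1. In the difference 6.52% of all genes were lower and 60.2% higher. After MITF siRNA, 10952 (91.7%) were lower and 116 (0.971%) higher.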

Other observations

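Of 17 noncanonical Wnt genes other than WNT5A, 10 were above background on all 8 arrays and 4 on none. Of 13 tested, 3 fell and 0 rose per cell after THZ1, and 6 fell and 4 rose after centring (all genes: 10.0% lower per cell, 21.1% lower and 17.7% higher after centring). VANGL1, a planar polarity membrane protein, read 177 and 202 with DMSO and 81.2 and 105.5 with THZ1 (-0.92 per cell, limma adjusted p = 0.00413). The Wnt receptors FZD5 and FZD7 fell by 0.82 and 0.78 per cell. After MITF siRNA, 9 fell and 0 rose per cell, and 3 fell and 3 rose after centring, beside 63.4% of all tested genes lower per cell and 24.7% lower and 19.5% higher after centring. DAAM1, a formin that binds Dishevelled, read 276 and 342 with siCtrl and 117 and 74.1 with siMITF, a fall of 1.56 per cell and 0.93 after centring.

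Among 13 tested tropomyosin, actin, tenascin and matrix receptor genes, 0 passed per cell after THZ1, while 7 rose and 0 fell after centring, with a list median of 0.23, where 17.7% of all tested genes rose and the 506 background probe sets had a median of 0.15. Of the 17 listed genes with a probe set, 7 were above background on no array. The integrin subunits ITGAV and ITGB1 rose by 0.49 and 0.36 on that scale. After MITF siRNA, 8 fell and 1 rose per cell, and 2 fell and 3 rose after centring with a median of 0.08, beside 63.4% of all tested genes lower per cell and 24.7% lower and 19.5% higher after centring. TPM4, a tropomyosin like TPM1, fell by 0.96 per cell and 0.33 after centring. The gene that rose was ACTA2, smooth muscle actin, which read 44.3 and 61.7 with siCtrl, below background, and 132 and 101 with siMITF, above it.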
